A study of Mus musculus with 10 samples.

Results

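The brain-specific angiogenesis inhibitor (BAI) receptors and the latrophilins were followed through the RNA of hippocampal cells tagged during an aversive, an appetitive or a neutral experience. The 8 genes were taken by symbol from the 53379 genes counted in each library. They comprised the BAI receptor genes Adgrb1, Adgrb2 and Adgrb3, the latrophilin genes Adgrl1, Adgrl2 and Adgrl3, and their relatives Adgrl4 and Adgrg1. The genes were chosen by their measured levels across these same libraries, since the list was proposed with earlier results known. Adgrb2 stood among the leading genes of the study for aversive against neutral cells, so its values in comparisons with the aversive group are given as a description without a test.

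All animals were male C57BL/6 mice, given in the labels as 5 weeks old, and the dissected tissue was the hippocampal region. Active cells of the tagged groups carried EYFP fused to channelrhodopsin (AAV9-TRE-ChR2-EYFP), switched on by a transactivator under control of the c-Fos promoter (AAV9-c-Fos-tTA) and held off by doxycycline. Labeling therefore depends on which cells were infected and had an active c-Fos promoter while doxycycline was withheld, and it does not by itself choose a cell type. Aversive cells came from mice given 4 shocks to the feet, at 1.5 mA for 2 s each (n = 2 libraries, numbered 1 and 3). The appetitive group spent 1 h with a female in a clean cage (n = 2), the neutral group was placed in the conditioning cage with no stimulus (n = 3), and the mock group was kept in the home cage (n = 3). The time with the female is 1 h in the Results of the study and 2 h in its Methods. The study calls the mock samples untagged controls, while the labels describe every sample as sorted for EYFP. The methods give the sample size of the mock control as 2 mice, fewer than its 3 libraries, and do not say whether this is the total. If it is, mock libraries share animals. Every SD and p-value against mock would then rest on libraries that are not all separate animals. The tagged groups were pools of 8 mice, and no source says whether libraries of one group came from separate pools. The p-values therefore measure the spread between libraries, which may be partly technical, and they may be too small.

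Adhesion G protein-coupled receptors carry a long extracellular region that is cut from the membrane-spanning part at a conserved proteolysis site and stays attached to it. BAI receptors sit at excitatory synapses, where they bind reticulon receptors outside the cell and engage ELMO, DOCK and Rac inside it. BAI3 also binds C1q-like proteins. Latrophilins are postsynaptic receptors that bind teneurins and FLRT proteins across the synaptic cleft, and they take part in setting which inputs reach which dendrites of hippocampal pyramidal cells. Adgrl4, also called ELTD1, is best known from endothelium, and Adgrg1, also called GPR56, from neural and oligodendrocyte precursors, microglia and astrocytes.

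The total count per library ranged from 16968588 to 67650693, and levels are given as CPM, the count scaled to library size, after TMM scaling. A level of 3 counts, taken as the lowest that the depth could show, came to between 0.0347 and 0.235 CPM. The 3 neutral libraries were read as 100 bp pairs and the 7 others as single 40 bp reads, and the neutral libraries also had their own handling of the amplification kit, so library type and the neutral condition cannot be told apart. Summed over the marker list of each cell type, the 10 neuron markers reached 75.9 to 102 CPM in neutral libraries and 174 to 777 CPM in the 7 others. This separation rested on the most abundant of them, since the other 9 summed to 51.6 to 86.8 CPM in neutral libraries, 20.2 CPM in appetitive 2 and 105 to 418 CPM in the remaining 6. In contrast, the oligodendrocyte list summed to between 6113 and 676900 CPM over all libraries. A transcript of myelin, Mbp, took up to 30.8% of a library (appetitive 1). The material of the mock, aversive and appetitive groups was therefore rich in glial RNA. In neutral libraries the oligodendrocyte list summed to 6113 to 33070 CPM, beside 21080 to 129900 CPM of choroid plexus and ependymal markers. Neuron markers made a small part of the material in every group. In such mixed material, fewer cells of a type and less RNA per cell cannot be told apart.

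The genes lie on 6 chromosomes (GRCm38, GENCODE M21), and all 8 are protein-coding. Adgrb2 (ENSMUSG00000028782) spans chr4:129984870-130022633 on the plus strand, Adgrb1 (ENSMUSG00000034730) chr15:74516195-74589465 on the plus strand, and Adgrb3 (ENSMUSG00000033569) chr1:25067476-25829707 on the minus strand. Adgrl1 (ENSMUSG00000013033) spans chr8:83900105-83941954 on the plus strand, Adgrl2 (ENSMUSG00000028184) chr3:148815583-148990555 on the minus strand, and Adgrl3 (ENSMUSG00000037605) chr5:81020138-81825133 on the plus strand. Adgrl4 (ENSMUSG00000039167) spans chr3:151437887-151545086 and Adgrg1 (ENSMUSG00000031785) chr8:94974751-95014217, both on the plus strand. Reads were counted without strand, and exons of Adgrl1, Adgrl2 and Adgrl3 overlap genes on the other strand over 1343, 202 and 1582 bp, so a part of their counts could come from those genes. Adgrb1 shares 95 bp of exon with Gm26117 on its own strand, while exons of Adgrb2, Adgrb3, Adgrl4 and Adgrg1 overlap no other gene.

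Promoter sequences are shown for 3 receptors whose levels contrast most plainly below, Adgrb2 and Adgrb3, which were higher in each of the 7 other libraries than in any neutral library, and Adgrl1, which was counted in every library. Each is the 250 bases before the RefSeq start (GRCm38.p6), written 5′ to 3′ on the strand of the gene, with GC boxes (GGGCGG on either strand) in capitals. The Adgrb2 window is chr4:129984620-129984869 on the plus strand, the Adgrb3 window chr1:25829708-25829957 on the minus strand, and the Adgrl1 window chr8:83899848-83900097 on the plus strand.
Adgrb2: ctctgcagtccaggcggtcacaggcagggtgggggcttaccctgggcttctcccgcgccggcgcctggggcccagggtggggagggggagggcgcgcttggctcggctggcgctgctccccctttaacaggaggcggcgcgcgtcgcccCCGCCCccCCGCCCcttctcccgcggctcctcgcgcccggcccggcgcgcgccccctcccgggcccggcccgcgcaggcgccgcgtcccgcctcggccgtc
Adgrb3: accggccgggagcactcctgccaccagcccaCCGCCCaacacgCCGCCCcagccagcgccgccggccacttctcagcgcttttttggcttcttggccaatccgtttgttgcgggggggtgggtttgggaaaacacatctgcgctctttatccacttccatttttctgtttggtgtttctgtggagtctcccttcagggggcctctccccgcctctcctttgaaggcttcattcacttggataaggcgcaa
Adgrl1: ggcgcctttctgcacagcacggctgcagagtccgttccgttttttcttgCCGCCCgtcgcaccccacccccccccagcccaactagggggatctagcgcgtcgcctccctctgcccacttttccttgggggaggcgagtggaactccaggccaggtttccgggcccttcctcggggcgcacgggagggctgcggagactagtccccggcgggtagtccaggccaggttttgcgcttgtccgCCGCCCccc
The Adgrb2 window was 81.6% G and C with 35 CpG dinucleotides, against 59.2% and 14 for Adgrb3 and 68.8% and 21 for Adgrl1. The median over 32851 promoter windows was 52.4% with 6 CpG dinucleotides. Each of the 3 windows held 2 GC boxes, and 32.7% of all windows held at least 1. None of the 3 held a cAMP response element (TGACGTCA, in 1.55% of all windows), an AP-1 motif (TGANTCA, in 6.75%) or a TATA box (TATAAA, in 12.4%), searched on both strands. Adgrb2 and Adgrb3, which shared a low neutral level, thus differed in base composition. In the printed windows the motifs did not set them apart from Adgrl1. Adgrg1, whose windows are not printed, was also higher in each of the 7 other libraries than in any neutral library. It was also counted in every library. RefSeq windows were matched for 7 of the 8 genes, with 10 windows in all. Among the windows not printed, 1 of Adgrg1 held 2 AP-1 motifs, those of Adgrl2 and 1 of Adgrl3 held a TATA box, and those of Adgrl2, Adgrl4 and Adgrg1 held no GC box.

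Adgrb2 encodes BAI2, the least studied of the BAI receptors. Its level was 19.8, 4.90 and 15.1 CPM in mock 1, 2 and 3, 36.1 and 20.5 CPM in aversive 1 and 3, and 1.09 and 2.30 CPM in appetitive 1 and 2. It had 0 counts in all 3 neutral libraries, where 3 counts would be 0.0347 to 0.0473 CPM. The groups were ordered aversive, mock, appetitive, neutral, and no neighboring groups in that order overlapped. Of all tested genes, 11.4% had aversive above mock, 38.9% appetitive below mock, and 11.4% appetitive above neutral libraries without overlap. The aversive level was at least 598-fold higher than neutral, and appetitive minus aversive was -4.05 on the log2 scale. Against neutral, the appetitive level was at least 35.9-fold higher (edgeR adjusted p = 0.0237, higher in 2 of 2 libraries), and it was called. Across the alternatives its adjusted p ran from 8.48e-08 to 0.113, and the call was lost without mock 1, 2 or 3 or neutral 1 or 3 (adjusted p from 0.0555 to 0.0743), and in a fit of the appetitive and neutral groups alone (0.113). Neutral was at least 280-fold lower than mock, with an edgeR adjusted p of 0.0675 and a range of 1.46e-13 to 0.293 over the alternatives; it passed the threshold without appetitive 1 (0.0378) or 2 (0.0375). Both of these tests use the neutral libraries on which the gene was first chosen and are not independent of that choice. A count of 0 in every neutral library was found in 6.15% of the tested genes.

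Adgrb1 encodes BAI1, which acts in engulfment of dying cells and at dendritic spines. Its level was 12.7, 5.68 and 11.3 CPM in mock, 13.2 and 42.6 CPM in aversive, 26.0 and 0 CPM in appetitive, and 0.0631, 0.243 and 0.128 CPM in neutral libraries. All 5 mock and aversive libraries lay above all 3 neutral ones, whereas the appetitive libraries took both ends, with 332 counts in replicate 1 and none in replicate 2. In appetitive 2, 35.9% of tested genes had 0 counts. Aversive minus neutral was 7.56 ± 2.23 (SE) on the log2 scale (edgeR adjusted p = 0.163, higher in 2 of 2 libraries). The levels were 27.9 ± 20.8 against 0.145 ± 0.0908 CPM (mean ± SD, n = 2 and 3). DESeq2 gave an adjusted p of 0.000328 for this difference, the edgeR value passed the threshold without appetitive 1 (0.0295) or 2 (0.0239), and the range over all alternatives reached 0.432. Neutral minus mock was -6.06 ± 2.05 (edgeR adjusted p = 0.216, DESeq2 0.00372).

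Adgrb3 encodes BAI3, the receptor of C1q-like proteins at climbing fiber and other synapses. Its level was 19.8, 3.13 and 16.8 CPM in mock, 4.10 and 50.2 CPM in aversive, 162 and 33.7 CPM in appetitive, and 0, 0 and 0.899 CPM in neutral libraries. The neutral libraries were again the lowest of the 10, and here the appetitive libraries lay above all mock libraries. The fitted difference of appetitive minus neutral was 8.33 ± 2.47 on the log2 scale (97.8 ± 90.6 against 0.300 ± 0.519 CPM, n = 2 and 3), and its edgeR adjusted p of 0.0646 missed the threshold. DESeq2 gave 0.000462, and the alternatives ran from 0.000185 to 0.151. Aversive minus neutral was 6.49 ± 2.30 (edgeR adjusted p = 0.188, DESeq2 0.0184), and neutral minus mock -5.45 ± 2.14 (edgeR adjusted p = 0.282). The 70 counts of neutral 3 set the fitted size: without it the neutral group was at 0 and the fitted difference of neutral minus mock was -12.08.

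**Figure D1:**
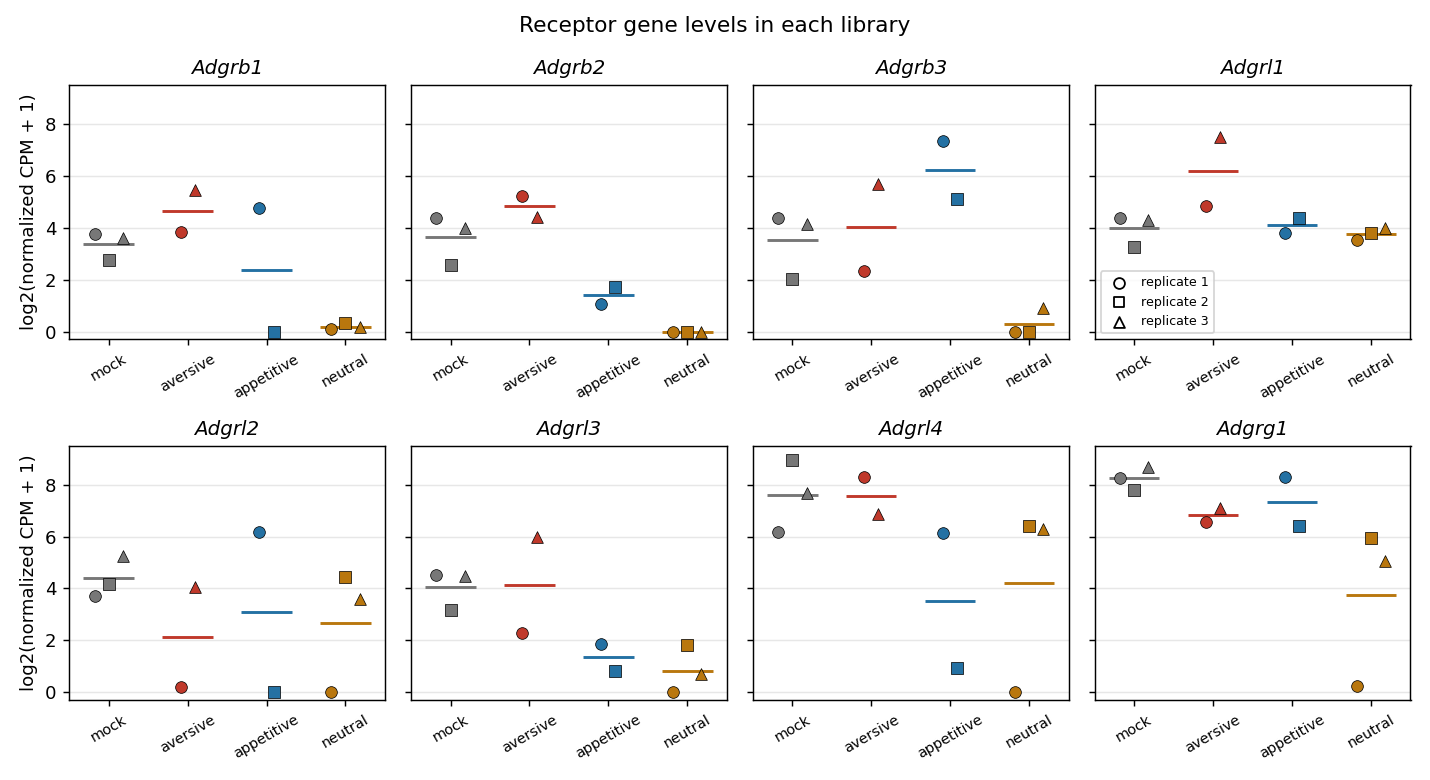
Level of each receptor gene in the 10 libraries as log2(normalized CPM + 1) on the y axis, by group on the x axis; each symbol is 1 library, its shape gives the replicate number, and the bar is the group mean on that scale. Adgrb1, Adgrb2 and Adgrb3 lie below 1 CPM in all 3 neutral libraries, whereas Adgrl1 stays between 8.59 and 20.0 CPM in all but the 2 aversive libraries.

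Adgrl1 encodes latrophilin-1, a brain receptor for the black widow toxin alpha-latrotoxin. Its level was 19.9, 8.59 and 18.7 CPM in mock, 27.9 and 178 CPM in aversive, 13.0 and 20.0 CPM in appetitive, and 10.6, 12.9 and 15.0 CPM in neutral libraries. It was the only one of the 8 genes with over 100 counts in each of the 10 libraries, and its neutral range lay within the mock range. The aversive libraries lay above all others, and aversive 3, with 8880 counts, exceeded aversive 1 several-fold. Aversive minus neutral was 3.01 ± 1.02 on the log2 scale (103 ± 106 against 12.8 ± 2.18 CPM, n = 2 and 3, edgeR adjusted p = 0.179, DESeq2 0.00959), and aversive minus mock 2.71 ± 1.01 (edgeR adjusted p = 0.473, DESeq2 0.0382). Appetitive minus aversive was -2.64 ± 1.17 (edgeR adjusted p = 0.242). When aversive 3 was left out, aversive minus neutral fell to 1.12 and aversive minus mock to 0.82. Neutral minus mock was -0.30 ± 0.90, the smallest fitted difference of the 8 genes in that comparison, and appetitive minus mock was 0.07 ± 1.00.

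Adgrl2 and Adgrl3 encode latrophilin-2 and latrophilin-3, which are placed on separate dendritic domains of CA1 pyramidal cells. Adgrl2 was at 12.2, 17.2 and 37.5 CPM in mock, 0.150 and 15.8 CPM in aversive, 70.6 and 0 CPM in appetitive, and 0, 20.7 and 11.1 CPM in neutral libraries. Each tagged group held 1 library at or near 0 and at least 1 above 10 CPM, so no group stood apart, and all 6 fitted differences had adjusted p-values of 0.674 or more with edgeR. Adgrl3 was at 22.2, 8.07 and 21.2 CPM in mock, 3.90 and 61.8 CPM in aversive, 2.66 and 0.786 CPM in appetitive, and 0, 2.49 and 0.642 CPM in neutral libraries. All 5 mock and aversive libraries of Adgrl3 lay above all 5 appetitive and neutral libraries. None of these Adgrl3 differences passed the edgeR test: aversive minus neutral was 4.97 ± 2.01 (adjusted p = 0.229, DESeq2 0.0287), neutral minus mock -4.03 ± 1.86 (adjusted p = 0.381), and appetitive minus aversive -4.26 ± 2.31 (adjusted p = 0.328).

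Adgrl4 was at 72.1, 488 and 202 CPM in mock, 315 and 115 CPM in aversive, 69.1 and 0.890 CPM in appetitive, and 0, 83.1 and 76.9 CPM in neutral libraries. Its lowest values were in neutral 1 and appetitive 2, and the summed level of 6 endothelial markers was lowest in these libraries too, at 38.2 and 61.5 CPM, against 409 to 2087 CPM in the other 8. Single genes of the list did not all follow: in neutral 1 Pecam1 and Cdh5 had 0 counts while Cldn5 had 1655, and Pecam1 was lower in aversive 1, at 8.36 CPM, than in appetitive 2, at 34.9 CPM. The part of endothelial RNA in the Adgrl4 levels was not tested. All 6 fitted differences had adjusted p-values of 0.425 or more with edgeR.

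Adgrg1 was at 307, 222 and 409.9 CPM in mock, 92.2 and 136 CPM in aversive, 313 and 83.1 CPM in appetitive, and 0.174, 61.3 and 32.2 CPM in neutral libraries. All 7 other libraries lay above all 3 neutral libraries, and both aversive libraries lay below all 3 mock libraries. Neutral minus mock was -3.33 ± 1.33 on the log2 scale (31.2 ± 30.6 against 313 ± 94.1 CPM, n = 3 each, edgeR adjusted p = 0.295), and appetitive minus neutral 2.67 ± 1.37 (edgeR adjusted p = 0.212). Neutral 1, with 11 counts, stood far below the other neutral libraries. Without it, neutral minus mock was still negative, and across all libraries left out in turn the difference ran from -4.29 to -2.75. The summed microglia markers, a list to which the related pattern gene Csf1r belongs, were 35.8 to 253 CPM in neutral libraries and 707 to 8367 CPM in the others, and the astrocyte list 163 to 338 against 2318 to 13160 CPM. The part of these cell types in the Adgrg1 difference was not tested.

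Per kilobase of exon, Adgrg1 and Adgrl4 were the most abundant receptors in the mock group, at 57.8 ± 17.4 and 55.4 ± 46.5 CPM per kb (mean ± SD, n = 3), and neither library range overlapped that of the gene next in order, Adgrb2, at 2.04 CPM per kb. Adgrl1, Adgrl2, Adgrb1, Adgrl3 and Adgrb3 followed at 1.83, 1.57, 1.37, 0.966 and 0.713 CPM per kb, and these neighbors did not differ beyond their spread. In aversive cells the order was Adgrl4, Adgrg1, Adgrl1, Adgrb2, Adgrb1, Adgrl3, Adgrb3 and Adgrl2, from 46.9 to 0.563 CPM per kb, and all 7 neighboring pairs overlapped. Adgrg1 led in appetitive cells at 36.6 ± 30.1 CPM per kb and did not overlap the next gene, Adgrl4, at 7.63, while Adgrb2 at 0.262 and Adgrl3 at 0.0970 came last. In neutral cells Adgrl4 and Adgrg1 led at 11.6 ± 10.1 and 5.76 CPM per kb, Adgrl1 came next at 1.49 ± 0.254, and Adgrb1, Adgrb3 and Adgrb2 filled the last places at 0.0200, 0.0162 and 0 CPM per kb.

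The first comparison asked which receptors differed between aversive and neutral cells. Leaving out Adgrb2, which was chosen on this contrast, the aversive libraries lay above all neutral libraries in 6 of the 7 other genes, and the exception was Adgrl2. Such an arrangement was found in 14.4% of the 19754 tested genes. The fitted differences of the 7 genes had a median of 3.01 on the log2 scale, against -0.15 over all tested genes. With edgeR, 0 of the 7 genes tested were called, where 0.0405% of all tested genes were. At an unadjusted p under 0.05 there were 4 of 7, namely Adgrb1, Adgrb3, Adgrl1 and Adgrl3, against 19.1% of tested genes, and DESeq2 called these 4 as higher, where it called 6.83% of 20580 genes as higher.

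For appetitive against neutral cells, 1 of 8 genes, Adgrb2, was called with edgeR, where 0.937% of tested genes were called as higher. The appetitive libraries lay above all neutral libraries for Adgrb2, Adgrb3 and Adgrg1, 3 of 8 genes against 11.4% of tested genes. Since Adgrb2 was chosen with the neutral libraries in view, the count is 2 of 7 without it. The median fitted difference was 2.20, or 1.74 without Adgrb2, and -0.91 over all tested genes. DESeq2 called 3 of 8 as higher, Adgrb1, Adgrb2 and Adgrb3, against 7.69% of genes. Leaving out Adgrb2, Adgrb1 and Adgrb3 remain there, and edgeR called no other receptor. This comparison shares its neutral libraries with the one before, so the values for the BAI receptors were not independent of each other. Without appetitive 1 the Adgrb1 difference turned from 6.45 to -5.82, since the remaining library had 0 counts, and without appetitive 2 it was 7.36 and passed the threshold (edgeR adjusted p = 0.0129).

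For neutral against mock cells, neutral libraries lay below all mock libraries for Adgrb1, Adgrb2, Adgrb3, Adgrl3 and Adgrg1, 5 of 8 genes against 15.9% of tested genes, or 4 of 7 without Adgrb2. All 8 fitted differences were negative, with a median of -3.68, or -3.33 without Adgrb2, against 0.08 over all tested genes. With edgeR 0 of 8 were called, where 0.0861% of tested genes were, and 4 of 8 had an unadjusted p under 0.05 against 13.5% of tested genes. DESeq2 called 2 as lower, Adgrb1 and Adgrb2, against 5.86% of genes. Adgrb2 was also among those with an unadjusted p under 0.05, and without it DESeq2 called Adgrb1 alone. Adgrb2, Adgrb3 and Adgrg1 exceeded all neutral libraries in each of the 7 libraries of the mock, aversive and appetitive groups, 3 of 8 genes against 2.96% of tested genes. Adgrb2 was chosen with the neutral libraries in view, and without it Adgrb3 and Adgrg1 remain. Adgrb1, Adgrb2 and Adgrb3 were below 1 CPM in every neutral library, which held for 21.5% of tested genes. Leaving out Adgrb2 for the same reason, Adgrb1 and Adgrb3 remain. Neutral 1 alone had 0 counts for 5 of the 8 receptors, where 19.6% of tested genes had none. Neutral 2 and 3 had 0 counts for 2 and 1 of them, near the 18.4% and 14.3% of tested genes that had none. Adgrb2 is among the receptors counted in each library. The 3 neutral libraries differ from the others in kit handling and read type, and summed levels of astrocyte and microglia markers were below those of every other library; their part in the low receptor levels was not tested.

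**Figure D2:**
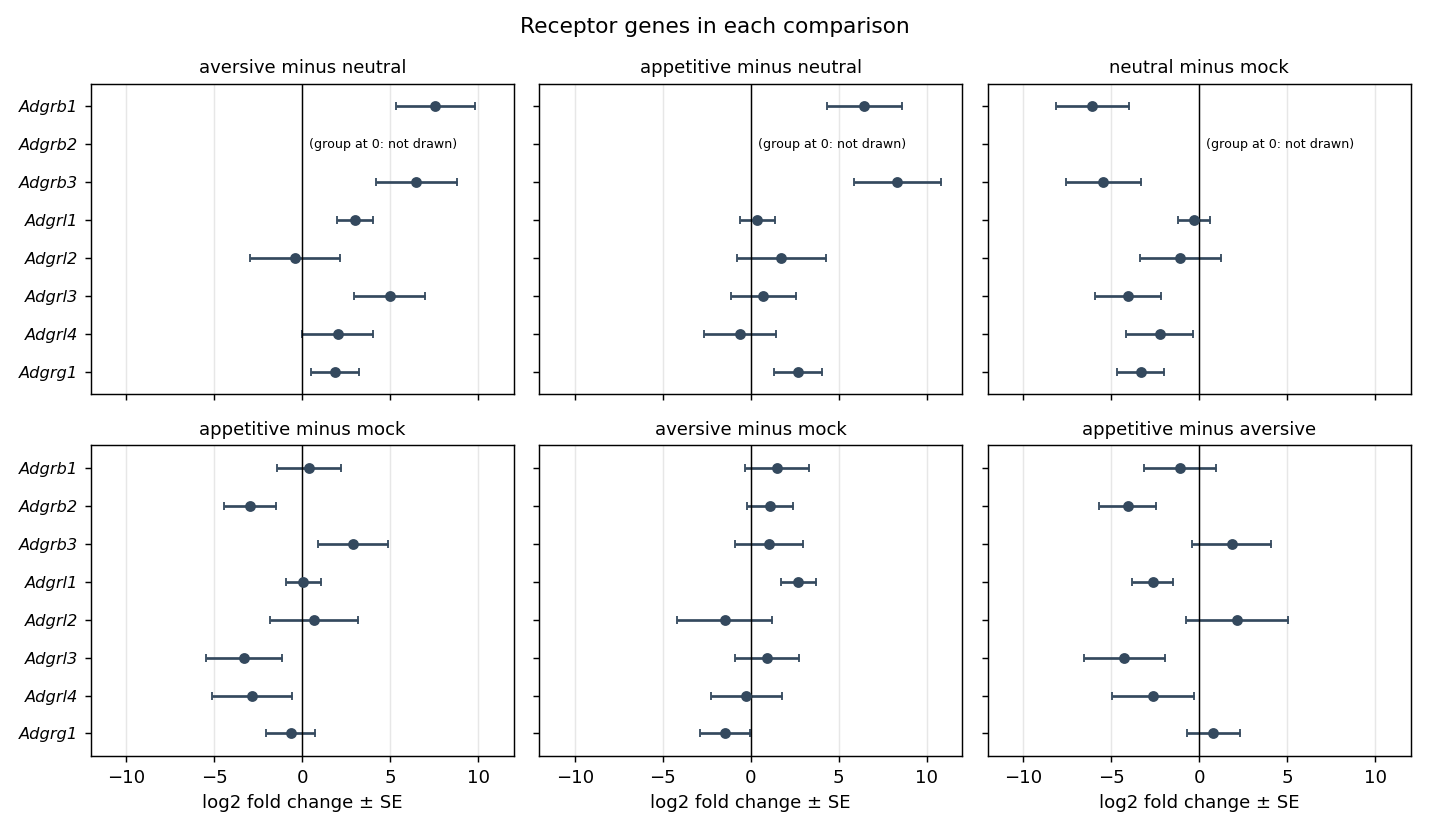
Fitted log2 fold change (x axis, point) with its standard error (bar) for each receptor gene (y axis) in the 6 comparisons; values to the right are higher in the group named first. Adgrb2 is not drawn where neutral had 0 counts. Its points and bars in comparisons with the aversive group are a description without a test, since it was chosen on those values. In neutral minus mock the 7 drawn genes lie at or below -0.30, while in appetitive minus mock they fall on both sides of 0.

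Appetitive and aversive cells were compared directly. Besides Adgrb2, which was chosen on its aversive values, appetitive libraries lay below both aversive libraries for Adgrl1, Adgrl3 and Adgrl4, 3 of 7 genes against 20.1% of tested genes, and above them for none. The median fitted difference of the 7 genes was -1.10, and -0.48 over all tested genes. With edgeR 0 of the 7 tested genes were called, where 1.8% of all tested genes were, and 1, Adgrl1, had an unadjusted p under 0.05, against 20.0% of tested genes. DESeq2 called 0 of 7, against 24.3% of genes. Without appetitive 1, Adgrb1 passed the threshold with edgeR as lower in the appetitive library left, which had 0 counts (adjusted p = 0.0482). Among the BAI genes the order of the groups was not shared: Adgrb2 was 36.1 and 20.5 CPM in aversive against 1.09 and 2.30 CPM in appetitive libraries, whereas the appetitive value of Adgrb3 was 162 and 33.7 CPM against 4.10 and 50.2 CPM. The Adgrb3 difference of 1.85 ± 2.23 had an edgeR adjusted p of 0.751.

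Against the mock group, 0 of 7 genes were called in aversive and 0 of 8 in appetitive cells with edgeR, where 0.0% and 1.98% of tested genes were. An unadjusted p under 0.05 was found for 1 gene in aversive cells, Adgrl1, and for 0 in appetitive cells, against 9.96% and 23.8% of tested genes. DESeq2 called Adgrl1 in aversive cells, where 0.564% of genes were called as higher, and 0 genes in appetitive cells, against 28.3% of genes. Besides Adgrb2, aversive libraries lay above mock for Adgrb1 and Adgrl1, 2 of 7 genes against 11.4%, and below it for Adgrg1, 1 of 7 against 24.7%. Appetitive libraries lay above mock for Adgrb3, 1 of 8 against 9.78%, and below it for Adgrb2, Adgrl3 and Adgrl4, 3 of 8, where 7689 of 19754 tested genes (38.9%) did. Appetitive minus mock was 2.88 ± 2.00 for Adgrb3 (edgeR adjusted p = 0.364) and -2.96 ± 1.49 for Adgrb2 (edgeR adjusted p = 0.246). The median fitted differences were 0.94 in aversive cells over the 7 genes other than Adgrb2 and -0.30 in appetitive cells over all 8, against -0.13 and -1.45 over all tested genes.

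Beyond the 8 genes, 22 other adhesion receptors were listed and 15 passed the filter on low counts. Adgra3, a receptor linked to Wnt signaling, was the 1 gene of this list called. It fell in appetitive against neutral cells, where 5.23% of tested genes were called as lower, and against mock cells, where 1.96% were. Its level was 0.0782 and 0 CPM in appetitive libraries, a single count in all, 30.6, 12.7 and 73.4 CPM in neutral, 27.0, 25 and 15.7 CPM in mock, and 5.96 and 23.9 CPM in aversive libraries. Adgra3 was thus well above the floor in all 8 libraries of the other groups and below it in both appetitive ones. Of all tested genes, 37.1% had 0 counts in appetitive 1 and 35.9% in appetitive 2, against at most 26.3% in any other library. The low appetitive levels of the partners below stand beside the same shares. The ratio of neutral to appetitive was 1240 (95% Poisson interval on the appetitive count 223 to 49000, covering counting error only, edgeR adjusted p = 0.0239), and that of mock to appetitive 719 (129 to 28400, edgeR adjusted p = 0.0431). Among libraries left out, the calls were lost without mock 1, 2 or 3 or neutral 3 in both comparisons (adjusted p from 0.0564 to 0.113), and against mock also without neutral 1 (0.0766) or 2 (0.0683). The call against neutral was also lost in a fit of the 2 groups alone (0.0951), and that against mock with the size factors of DESeq2 (0.0557). The median of the list was -5.42 for appetitive minus mock, or -4.62 with 2 genes at their bounds, against -1.45 over all tested genes. In the other 4 comparisons edgeR called 0 of the 15, with 1 to 4 of them under an unadjusted p of 0.05, where 9.96% to 20.0% of tested genes were, while DESeq2 called 1 to 6, where it called 7.76% to 24.3% of genes.

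Of 8 listed extracellular partners of the BAI receptors, 7 passed the filter and 1 was called. Rtn4rl1, a Nogo receptor homologue that binds BAI receptors, fell in appetitive against neutral cells. It was at 0.156 and 0 CPM in appetitive and 48.8, 96.8 and 92.2 CPM in neutral libraries, a ratio of 1260 (95% Poisson interval 350 to 10400, edgeR adjusted p = 0.0318), in a comparison where 5.23% of tested genes were called as lower. It was also low in aversive libraries, at 0.300 and 1.32 CPM, and ranged from 4.74 to 73.4 CPM in mock libraries. Of the neutral libraries, in which the BAI receptor genes were below 1 CPM, 2 thus held the highest levels of this partner. The call was lost without mock 1, 2 or 3, appetitive 2 or any of the neutral libraries (adjusted p from 0.0506 to 0.0806) and in a fit of the 2 groups alone (0.0951), and DESeq2 gave no adjusted p for this gene. In the other 5 comparisons edgeR called 0 of the 7, with 1 to 4 under an unadjusted p of 0.05, where 9.96% to 23.8% of tested genes were, and DESeq2 called 1 to 3, where it called 7.76% to 28.3% of genes.

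Of 11 listed partners of the latrophilins, all passed the filter and 0 were called with edgeR in the 6 comparisons. Between 0 and 5 of them had an unadjusted p under 0.05 in a comparison, where 9.96% to 29.3% of tested genes did, and DESeq2 called 0 to 5, where it called 7.76% to 29.5% of genes. Over the list, the median fitted difference was 2.82 for aversive minus neutral, -2.40 for appetitive minus neutral and -5.78 for appetitive minus aversive. The last was -5.12 with 3 genes that had 0 counts in appetitive libraries at their bounds, against -0.48 over all tested genes.

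Adgrg1 has a pair of listed extracellular partners, the collagen gene Col3a1 and the transglutaminase gene Tgm2. Tgm2 fell in appetitive cells, with 1 and 3 counts (0.0782 and 0.157 CPM), against 10.3, 82.0 and 34.1 CPM in neutral and 17.9, 136 and 77.0 CPM in mock libraries. The ratio of neutral to appetitive was 336 (95% Poisson interval 131 to 1230, edgeR adjusted p = 0.0237), and that of mock to appetitive 612 (239 to 2250, edgeR adjusted p = 0.0336), where 5.23% and 1.96% of tested genes were called as lower. The call against neutral was lost without mock 2 or 3, appetitive 1 or neutral 3 (adjusted p from 0.0573 to 0.0643), and that against mock without appetitive 1 or any mock or neutral library (0.0593 to 0.101). The call against neutral was also lost in a fit of the 2 groups alone (0.0951). Col3a1 was not called in any comparison. Adgrg1 itself was at 313 and 83.1 CPM in these appetitive libraries. Of 18 listed intracellular partners and effectors, all passed the filter and edgeR called 0 in each comparison, with 0 to 4 under an unadjusted p of 0.05 and 0 to 4 called by DESeq2, beside the same shares of all genes as for the latrophilin partners. The median of the list lay between -0.64 and 0.36 in the 6 comparisons. Their summed level was 1108 to 1227 CPM in mock, 1007 to 1245 in aversive, 1423 to 1520 in appetitive and 678 to 1251 in neutral libraries, a far narrower spread than the 10.8 to 758 CPM of the 8 receptors. This sum leaned on abundant genes and does not describe each effector. In appetitive 1, Rac1, Gna12 and Gna13 were at 539, 441 and 182 CPM, while Elmo2 and Dock1 were at 0.313 and 1.095 CPM.

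**Figure D3:**
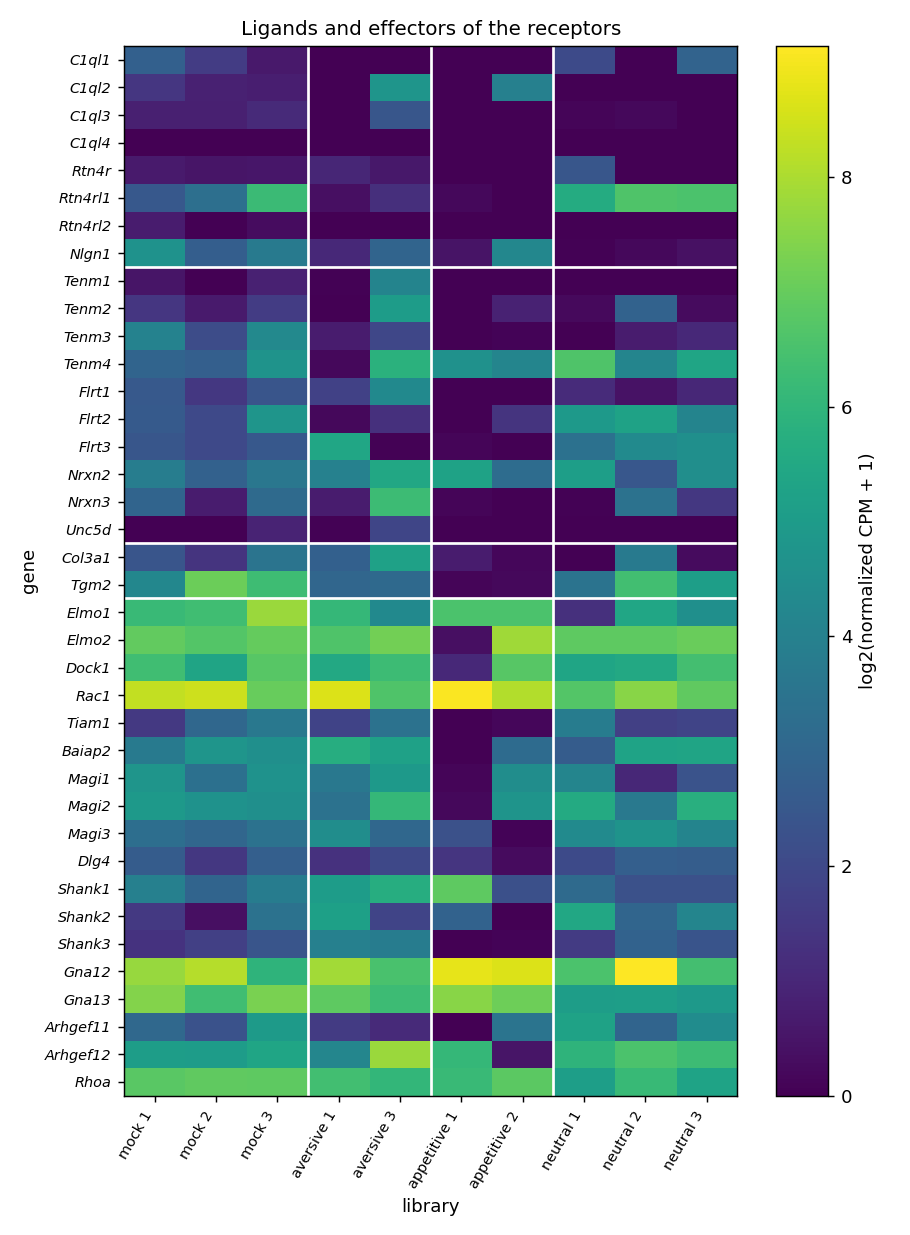
Level of listed ligands and effectors (rows) in the 10 libraries (columns) as log2(normalized CPM + 1) by color, from 0 CPM in dark purple to the highest in yellow; horizontal lines part the BAI partners, latrophilin partners, Adgrg1 partners and intracellular effectors, and vertical lines part the groups. Rtn4rl1 is bright in neutral and dark in appetitive libraries.

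Levels of the 8 receptors were compared across libraries as log2(CPM + 1), as a description over 10 libraries that share groups, depth and composition. The closest pair was Adgrb1 and Adgrl3 (Pearson r = 0.79, Spearman rho = 0.77), and the least alike were Adgrb2 and Adgrl2 (r = -0.01). Among all tested genes, the patterns most like Adgrb1 were those of Golga7b, Rims1 and Wnt7b (r = 0.985, 0.984 and 0.968). Those most like Adgrb2 were Slc13a3, Drp2 and Slitrk2 (0.982, 0.965 and 0.958). Drp2 and Slitrk2 stood with Adgrb2 among the leading genes of the study for aversive against neutral cells. Their likeness to Adgrb2 was therefore not independent of that contrast. Adgrb3 was closest to Srcin1, Fam228b and Daam2 (0.962, 0.955 and 0.941), and Adgrl3 to H2-Q4, Asic1 and Fam84a (0.967, 0.950 and 0.944). Adgrl2 was closest to Sass6, Atp10a and Plxnd1 (0.971, 0.962 and 0.958), Adgrl4 to Arhgdib, Mfng and Grasp (0.945, 0.940 and 0.940), and Adgrg1 to Gpd2 and Csf1r (0.950 and 0.942). For Adgrl1 the leading r of 0.963, 0.954 and 0.951, with Gm37696, Grhl2 and Gm13198, came with rho of only 0.769, 0.614 and 0.766. Its level was far higher in aversive 3 than elsewhere.

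**Figure D4:**
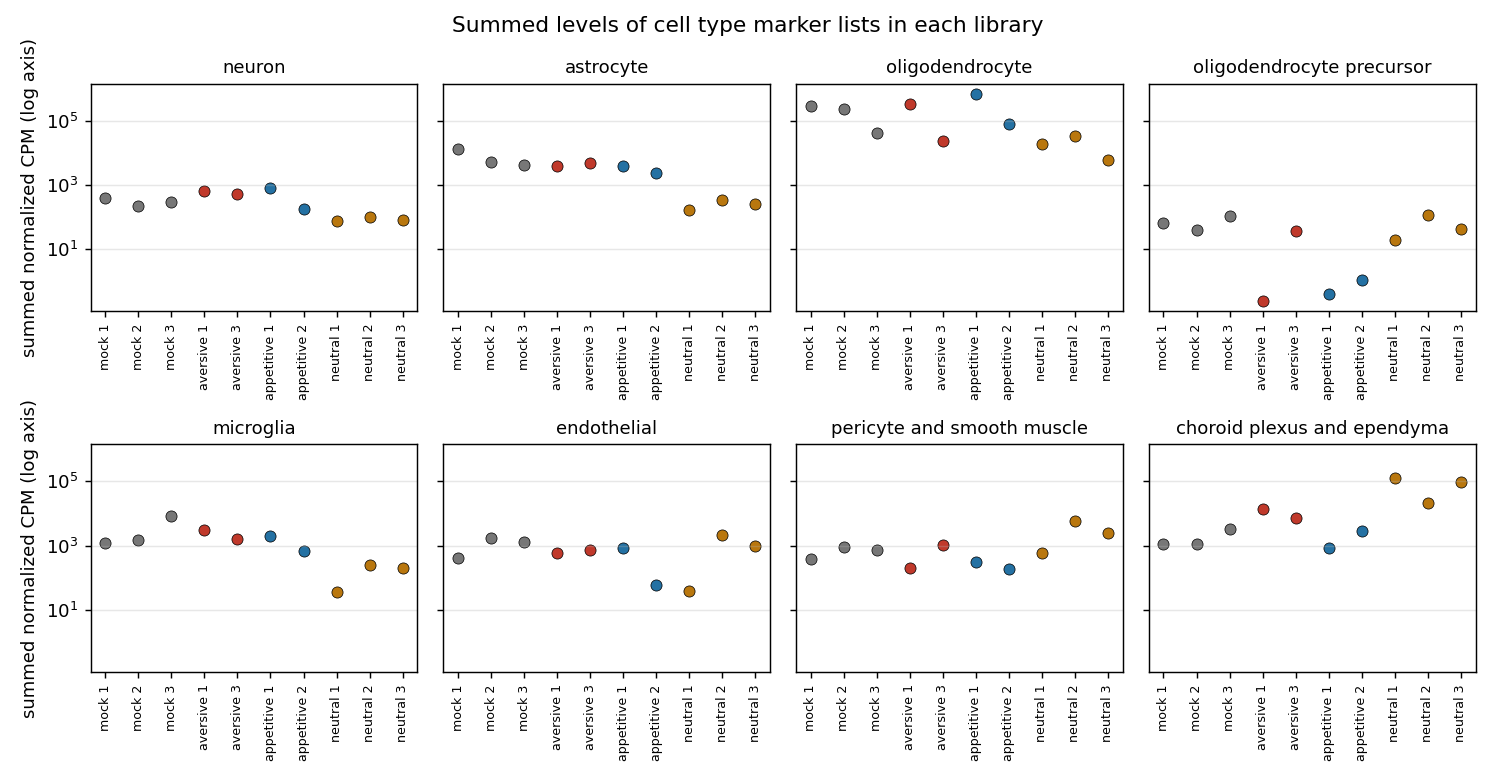
Summed normalized CPM (y axis, log scale) of the marker genes of 8 cell types (panels) in each of the 10 libraries (x axis, colored by group). Astrocyte and microglia sums are lowest in the 3 neutral libraries, the neuron sum is also lowest there only with its most abundant gene included, choroid plexus and ependyma sums are highest there (21080 to 129900 CPM), and the endothelial sum is lowest in neutral 1 and appetitive 2.

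Marker lists also differed between libraries and groups. Neutral libraries, with each BAI receptor gene below 1 CPM, held 21080 to 129900 CPM of choroid plexus and ependymal markers, against 848 to 13480 CPM in the 7 others, and Ttr alone was 2.65 to 13.6% of their counts. Both appetitive libraries had 0 counts of the interneuron markers Gad1 and Gad2, and their oligodendrocyte precursor markers summed to 0.391 and 1.10 CPM, against 40.3 to 108 CPM in mock. Neither trait was particular to them, since neutral 1 also had 0 counts of Gad1 and Gad2. The precursor sum of aversive 1 was lower still, at 0.250 CPM. The neuron list summed to 649 and 540 CPM in aversive 1 and 3, above the 222 to 387 CPM of mock, but without its most abundant gene the sums were 227 and 418 CPM against 105 to 251 CPM, and aversive 1 lay within the mock range. The part of cell composition in these receptor differences was not tested.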

How the data were processed

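RNA was measured in 10 libraries of sorted hippocampal material, called nuclei in the Results of the study and cells in its Methods. The authors aligned read starts of 40 bp to mm10 (STAR), assigned them to Ensembl genes of GRCm38 regardless of strand (featureCounts) and deposited raw counts for 53379 genes per library. Groups and replicate numbers came from the labels. Symbols, positions and exon lengths came from GENCODE M21, to which 53274 identifiers matched, and promoter sequences from RefSeq. The members and lists were chosen with earlier results of these data known.

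Counts were scaled by TMM (factors 0.48 to 1.45) and filtered by filterByExpr, and 19754 genes in 4 groups were fitted with the quasi-likelihood test of edgeR 4.0.16 in R 4.3.3 (6 residual and 5.05 prior degrees of freedom, common dispersion 1.49). Two-sided p-values were adjusted by the method of Benjamini and Hochberg across the tested genes, and a gene below 0.05 was called. The SE of a log2 fold change was taken from its F statistic. Folds against a group with 0 counts are lower bounds against the highest floor of 3 counts in a library of that group, and with 1 to 3 counts a ratio with a 95% Poisson interval is given. The steps were tested on simulated data for appetitive against neutral libraries. Of 100 genes changed 64-fold 24 were called, and of 100 changed 8-fold 0 were. A gene that was not called can therefore still differ by a large fold. The alternatives were DESeq2 1.42.0 (also at the threshold of the study, adjusted p under 1e-05 and over 4-fold), its size factors, library size alone, no filter, only the groups compared, a replicate block, and each library left out. The genes named were the 8 receptors, each listed partner or relative that was called, and the 3 genes most like each receptor by Pearson r. Single marker genes and single effectors were picked with their levels in view. Of the genes under this rule and the lists, 2 are not reported here, and those in a list count only in its totals. Python 3.11.15 with pandas 2.3.3 and matplotlib 3.10.9 wrote the tables and plots.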

Additional observations from a re-analysis of the deposited data

Results flagged for a closer look

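Adgrb2 stood on opposite sides of the mock libraries in the tagged groups. It was at 36.1 and 20.5 CPM in the aversive libraries, both above the mock range of 4.90 to 19.8 CPM. In the appetitive libraries it was at 1.09 and 2.30 CPM, both below that range. Of all tested genes, 11.4% lay above mock in aversive libraries and 38.9% below mock in appetitive libraries in this way. The difference between the aversive and appetitive effects for Adgrb2 was not tested, because the gene was chosen on its aversive values. Aversive 3 exceeded the highest mock library by little.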

How the results depend on the processing

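Comparisons are listed here in the order aversive minus neutral, appetitive minus neutral, appetitive minus aversive, aversive minus mock, appetitive minus mock and neutral minus mock, for which edgeR called 8, 1218, 356, 0, 391 and 17 genes. DESeq2 called 3403, 6067, 3996, 1485, 4813 and 1598 genes, with 4, 3, 0, 1, 0 and 2 receptors. Adgrb2 was among the receptors of the second and the last. At the threshold of the study DESeq2 called 695, 1379, 872, 259, 814 and 341 genes. It called 1 receptor in appetitive minus neutral and 1 in neutral minus mock. The size factors of DESeq2 gave 260 genes in appetitive minus mock, and library size alone 8 in neutral minus mock. With no filter there were 863, 2535, 1270, 10, 1124 and 520 genes, with 2, 4 and 3 receptors in the first, second and last. Fitting only the groups compared gave 0 genes in all but appetitive minus mock (3585), and 0 receptors in appetitive minus neutral.

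Same-numbered libraries did not deviate together (12 pairs, r from -0.04 to 0.17, 2 over 0.1), so the numbers do not pair the samples. With the replicate number as a block, 73 genes were called in appetitive minus neutral and 0 in each other comparison, 0 receptors were called (Adgrb2 in appetitive minus neutral had an adjusted p of 0.0974), the calls of Adgra3, Rtn4rl1 and Tgm2 were lost (0.0725 to 0.153), and 3 receptor differences changed sign: Adgrl4 in appetitive minus neutral (0.014) and aversive minus mock (0.285), and Adgrb3 in aversive minus mock (-1.61).

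Leaving out each library in turn gave 0 to 453, 67 to 2661, 0 to 1460, 0 to 0, 0 to 1800 and 0 to 84 genes, and 0 to 1, 0 to 2, 0 to 1, 0 to 0, 0 to 0 and 0 to 1 receptors. In appetitive minus neutral the fewest genes were called without neutral 3 and the most without aversive 3, and leaving out any mock library gave 231 to 270. Library size alone turned the sign in appetitive minus neutral for Adgrl1 (-0.10) and Adgrl3 (-0.30), and in appetitive minus mock for Adgrb1 (-0.80), Adgrl1 (-0.28) and Adgrl2 (-0.67). With a library left out, differences that turned sign ran, for aversive minus mock, from -1.23 to 0.66 (Adgrl4), -1.70 to 1.82 (Adgrb3) and -2.14 to 1.75 (Adgrl3), and for aversive minus neutral from -6.11 to 0.58 (Adgrl2). In appetitive minus neutral they ran from -5.82 to 7.36 (Adgrb1), -0.064 to 0.54 (Adgrl1), -11.99 to 2.69 (Adgrl2), -0.53 to 2.43 (Adgrl3) and -6.02 to 0.27 (Adgrl4). In appetitive minus mock they ran from -11.99 to 1.19 (Adgrb1), -0.48 to 0.23 (Adgrl1) and -13.14 to 1.49 (Adgrl2), and in appetitive minus aversive from -11.59 to 7.85 (Adgrl2) and -0.60 to 1.33 (Adgrg1). The lowest values of Adgrb1 and Adgrl2 came without appetitive 1, which left a library with 0 counts, and depend on the prior count. Of 288 receptor differences under other settings 261 kept direction and side of the threshold, and of 480 with a library left out 450 did. The causes of the changes were not tested.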
